A study of Mus musculus with 2 samples.

Results

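Kappa B cells carrying transcripts of IgD or of CD23 were selected on measured values, the raw transcript counts of the genes named next, from mouse lung leukocytes. A barcode, the tag of a droplet that held a cell, was kept if it had 500 or more unique molecular identifiers (UMIs, the tags that count transcripts), 200 or more genes and no more than 10% mitochondrial UMIs. It was a member when Cd79a, Cd79b and Ms4a1 together had 3 or more UMIs, Cd3e, Cd3d and Cd3g had 0, Ighd and Fcer2a together had 2 or more, Igkc had no fewer than Iglc1, Iglc2 and Iglc3 together, and S100a8 and S100a9 made up under 1% of its UMIs. The rule found 1452 members among 9396 kept barcodes of the exposed library and 1553 among 9691 of the control library, 3005 of 19087 in all.

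The cells came from perfused and digested lungs and had been sorted for CD45, the surface protein of leukocytes. The exposed library was labelled with diesel exhaust particles (DEP, the soot of diesel engines) at 500 µg/m³, inhaled by the whole body for 1 hour on each of 5 days a week over 2 weeks, with the genotype Ccr2-/- (KO), CD45.3+. The control library was labelled with no treatment and the genotype Ccr2-/- (KO), CD45.1+. The labels thus put both libraries on a Ccr2-deficient background and on different CD45 alleles, whereas the series design speaks of C57BL/6J wild-type and Ccr2-/- mice. Ccr2, a chemokine receptor that monocytes need to leave the bone marrow, was detected in both libraries, at 205 CPM in the exposed and 139 CPM (UMIs of the gene scaled to 10⁶ UMIs) in the control library outside the members. Whether the counted 3′ end lies in the deleted part is not given in the sources used here, so these reads do not check the genotype. Age and the number of mice per library were not given either. Each group held 1 library, so no p-value was made, and exposure, allele, animal, sort and run cannot be told apart.

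Follicular B cells are the main recirculating B cells of the mouse. They carry a receptor with a heavy chain (IgM and IgD, spliced from the same transcript) and a light chain (kappa or lambda), which signals through the CD79A and CD79B proteins. CD23, encoded by Fcer2a, is the low-affinity receptor for IgE and is high on follicular cells and low on marginal zone and B-1 cells. With antigen, follicular cells can enter germinal centres or become plasma cells.

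The 5 markers of the cells are among the genes by which the members were chosen, so their levels are a description. CPM below means a gene's UMIs per 10⁶ UMIs of the cells named, here all members of a library, with exact 95% Poisson intervals in square brackets. These and all other intervals cover counting error only. Cd79a, a signalling chain of the B cell receptor (chromosome 7, 24897381 to 24902197, mm10, plus strand), was at 3015 CPM [2973 to 3058] in exposed and 2752 CPM [2713 to 2792] in control members. Ms4a1, which encodes CD20 (chromosome 19, 11249675 to 11266241, minus strand), was at 615 CPM [596 to 635] in exposed and 619 CPM [600.1 to 637] in control members. The intervals of Ms4a1 overlap and those of Cd79a do not. Ighd, the heavy chain of IgD, was at 1129 CPM [1104 to 1156] in exposed and 1089 CPM [1064 to 1113] in control members, and Fcer2a was at 408 CPM [392 to 423] in exposed and 419 CPM [404 to 435] in control members. Igkc, the kappa constant region, was at 7992 CPM [7923 to 8061] in exposed and 9521 CPM [9448 to 9594] in control members, and 1 control barcode held 10.4% of the Igkc UMIs there. Outside the members Cd79a had 152 CPM in the exposed and 221 CPM in the control library, and Fcer2a 12.7 and 21.05 CPM.

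Cr2, Cd5, Cd93 and Cd1d1, markers of other kinds of B cells that the rule did not use, were each found in a minority of members. Cr2, the complement receptor CD21 that marginal zone cells carry at a high level, had a UMI in 28.1% of exposed and 28.3% of control members. Cd5, a marker of B-1a cells, had one in 0.551% of exposed and 0.644% of control members. Cd93, a marker of transitional B cells, had one in 7.85% of exposed and 10.3% of control members. Cd1d1, a lipid-presenting molecule that is high on marginal zone cells, had one in 11.4% of exposed and 7.60% of control members. Other such markers ranged widely in level. Vpreb3, of early B cells, was at 208 CPM in exposed and 179 CPM in control members, and Cd9, of marginal zone and B-1 cells, at 197 and 250 CPM. Cr2 was at 96.8 and 95.6 CPM, Bhlhe41, of B-1a cells, at 27.6 and 29.8 CPM, and Zbtb32 at 3.86 and 5.06 CPM. In members without RNA of other cells, a group defined below, Cd9 was far lower. It was at 18.2 CPM in exposed and 20.02 CPM in control cells of that group with a CD23 UMI. In those without a CD23 UMI it was at 29.8 and 35.6 CPM. IgD and CD23 transcripts were found together in 1051 exposed members (72.4%) and 1140 control members (73.4%). Ighd alone was found in 372 exposed and 377 control members, and Fcer2a alone in 29 and 36.

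The limit on IgD and CD23 lay where cells were dense, and the limit on B cell genes where they were few. Exactly 2 UMIs of Ighd and Fcer2a were counted in 124 exposed and 160 control members. Just outside lay 97 exposed and 129 control kappa B cells with 1 such UMI. The B cell genes summed to exactly 3 in 2 exposed and 5 control members. Member depth was similar, with medians of 3698.5 UMIs in the exposed and 3452 in the control library and sums of 6476707 and 6922966 UMIs. The whole libraries held 10000 barcodes with 67030914 UMIs (exposed) and 10312 with 62047730 UMIs (control), and shared 23 barcode sequences, 2 of them among members.

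RNA of other cells differed between the libraries and touches the results below. Members with 3 or more UMIs of 38 marker genes of other cells (T and NK cells, myeloid cells, plasma cells, basophils and lung structure) were 253 in the exposed library (17.4% [15.5 to 19.5]) and 327 in the control library (21.1% [19.1 to 23.2]). The ratio of the shares was 0.828 [0.700 to 0.978]. T and NK cell genes reached that number in 27 exposed and 85 control members, and dendritic cell genes in 5 and 24. A doublet score marked 66 exposed and 87 control members. Results are given for all members and, as a step added after seeing the data, for the 1199 exposed and 1226 control members without that RNA, called the cleaner members below.

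The members made up 15.5% [14.7 to 16.2] of the kept barcodes in the exposed library and 16.03% [15.3 to 16.8] in the control library. The ratio was 0.964 [0.897 to 1.04], and 1.01 [0.931 to 1.09] for the cleaner members. A stricter filter (1000 UMIs, 500 genes, no more than 5% mitochondrial UMIs) gave 1.17, on the other side of 1. The median mitochondrial share of the members was 3.61% in the exposed and 4.33% in the control library. Among all B cells, the members were 79.7% [77.8 to 81.5] in the exposed and 76.996% [75.1 to 78.8] in the control library. Kappa B cells with at most 1 UMI of Ighd and Fcer2a made up 8.67% [7.42 to 10.1] of B cells in the exposed and 11.5% [10.1 to 12.98] in the control library, a ratio of 0.754 [0.612 to 0.927]. These B cells stood at a median of 3666 UMIs in the exposed and 2907.5 in the control library, and the part of depth in that ratio was not tested.

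**Figure D1:**
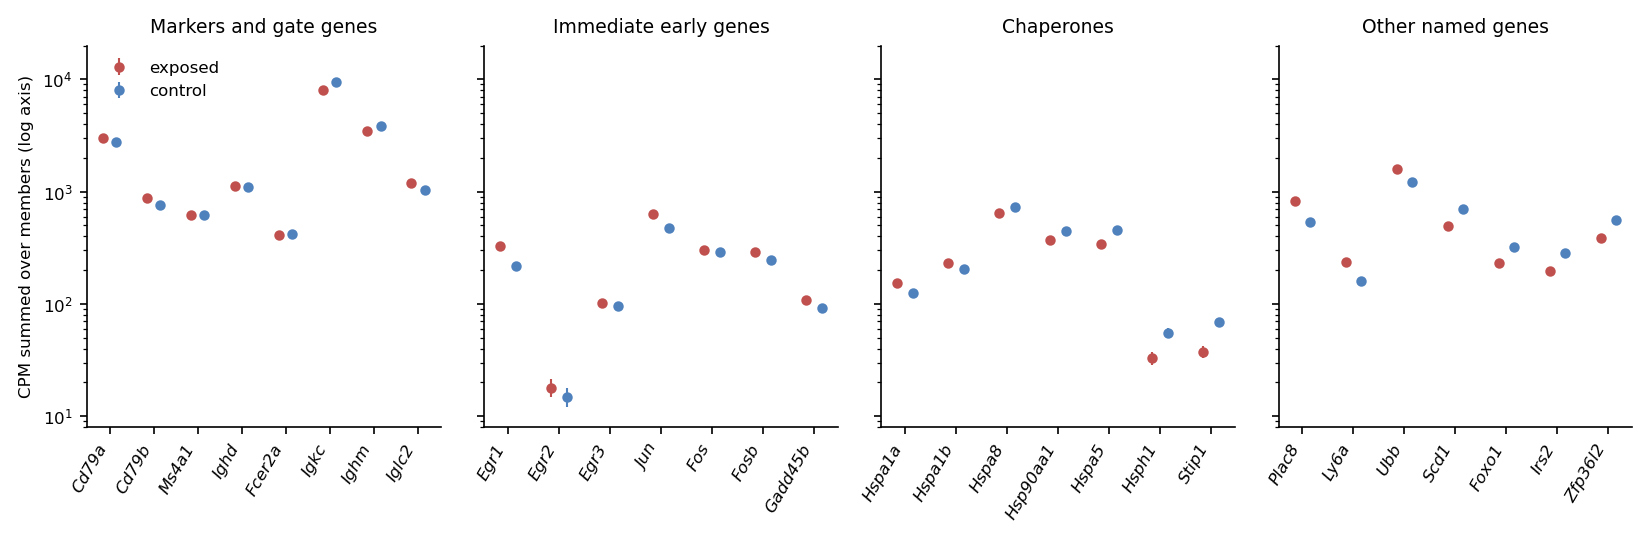
Level in CPM (log axis) of named genes summed over the 1452 exposed members (red, left) and the 1553 control members (blue, right), with exact 95% Poisson intervals. Marker levels lie close together, and Egr1 stands at 327 CPM in exposed and 218 CPM in control members.

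Across all genes, more were lower than higher in exposed members. Among 9436 genes with 50 or more UMIs over both libraries, 31.8% were above 0 and 68.2% below 0 on the log2 scale of exposed over control. Of these 121 (1.28%) were 1.5-fold or more higher and 615 (6.52%) 1.5-fold or more lower, and the median log2 ratio was -0.12. Centred on that median, 220 genes were higher and 395 lower, so a log2 ratio between -0.12 and 0 changes sign with this scaling. In the cleaner members 122 of 8255 genes (1.48%) were higher and 399 (4.83%) lower by that fold, with 31.1% above and 68.9% below 0.

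The genes lowest in exposed members were mostly genes of other cells and rested on a few control barcodes. By the interval bound nearest to 0, the 12 lowest were Jchain, Il22, Siglech, Ccr9, Tnfrsf17, Il10, Il12b, Timd4, Folr2, Xcr1, Klra8 and Fam46c. Jchain, the joining chain of secreted IgM and IgA, had 7 UMIs in exposed and 2654 in control members. A control barcode of 25744 UMIs held 47.2% of the control Jchain UMIs. The same barcode held 45.97% of the Igha UMIs (the heavy chain of IgA), of which exposed members had 56 and control members 9372. It also carried 5376 Igkc, 6 Ighd and 6 Fcer2a UMIs. Il22, a cytokine of innate lymphoid and T cells, had 0 UMIs in exposed and 257 in control members, at least 80.1-fold lower in exposed members against a floor of 3 counts, with 256 of them in 1 barcode. Siglech, a marker of plasmacytoid dendritic cells, had 3 UMIs in exposed and 109 in control members.

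Among the marker lists of other cells, lower in exposed members were 18 of 18 T and NK cell genes (median -0.92) and 12 of 13 dendritic cell genes (median -2.07). For monocytes and macrophages it was 16 of 24 (-0.14), and for neutrophils 9 of 15 (-0.093), shares near the 67.3% of all genes that were below 0. The neutrophil median changed sign in 4 of 16 settings. Summed over each list, monocyte and macrophage genes were at 4001 CPM in exposed and 3787 CPM in control members. Neutrophil genes were at 762 and 697 CPM, so both sums were higher in exposed members. The sums were lower there for T and NK cell genes, at 596 and 1031 CPM, and for dendritic cell genes, at 115 and 255 CPM.

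In the cleaner members few UMIs of these genes were left, which follows in part from how they were chosen, by leaving out members with other-cell RNA. Jchain had 4 exposed and 10 control UMIs there, and Il22 0 and 1. The log2 ratio of Igha was -1.07 [-1.74 to -0.45] in the cleaner members, against -7.28 [-7.70 to -6.91] in all members. Of the 615 lower genes, 196 had over 10% of their control UMIs in 1 barcode. Among the 121 higher genes, 35 had over 10% of their exposed UMIs in 1 barcode. Of the same 615, 286 kept 50 or more UMIs in the cleaner members, and 170 of those were again 1.5-fold or more lower. Of the 121 higher genes 59 kept that number, and 42 were again 1.5-fold or more higher.

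**Figure D2:**
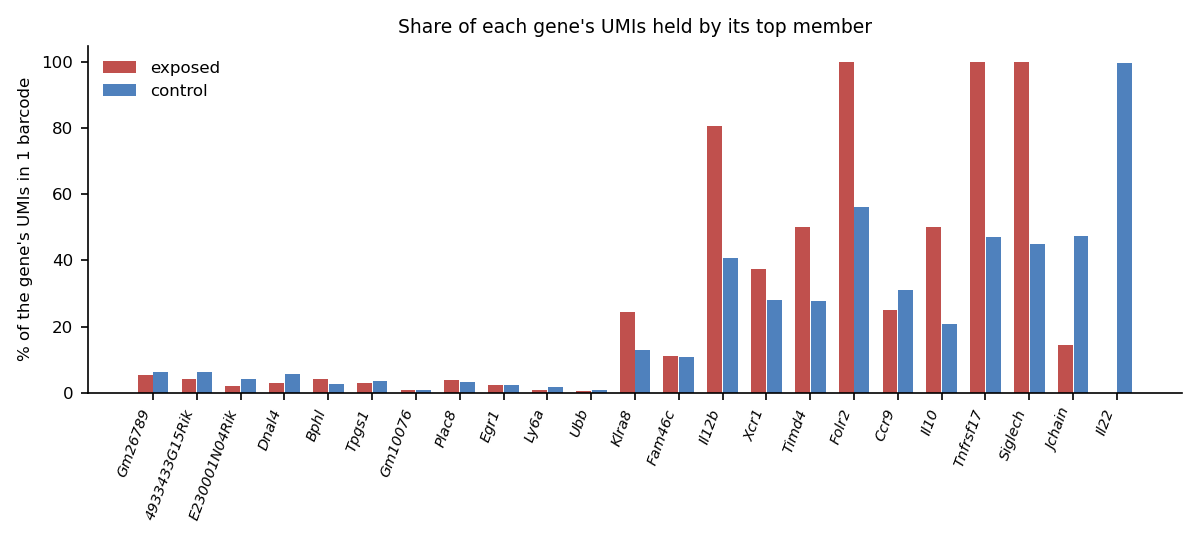
Percentage of each gene's UMIs held by the member with the most, for genes named among the 12 highest and 12 lowest, exposed (red) left of control (blue). The highest genes shown are spread over many cells, and among the lowest shown Il22 reaches 99.6% in the control library.

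Among the 12 genes highest in exposed members by the same ranking were 4933433G15Rik, Gm10076, E230001N04Rik, Plac8, Egr1, Gm26789, Dnal4, Ly6a, Bphl, Tpgs1 and Ubb. Egr1, a zinc finger factor that B cell receptor signals switch on quickly, was at 327 CPM [313 to 341] in exposed and 218 CPM [208 to 229.7] in control members. Its log2 ratio was 0.58 [0.49 to 0.68] in all and 0.72 [0.60 to 0.83] in the cleaner members. With every cell thinned to 1000 UMIs, 15.9% [14.01 to 17.8] of exposed and 12.7% [11.1 to 14.5] of control members had an Egr1 UMI, and the intervals overlap. T cells of the same libraries were gated by 2 or more UMIs of the Cd3 genes and none of the B cell genes. Their Egr1 log2 ratio was 0.12, and 7.20% of exposed and 8.13% of control T cells had an Egr1 UMI after thinning.

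Ly6a, the interferon-inducible surface protein Sca-1 (chromosome 15, 74994877 to 74998031, minus strand), was at 237 CPM [225 to 249] in exposed and 159.6 CPM [150.3 to 169] in control members. The log2 ratio was 0.57 [0.46 to 0.68] in all members, 0.46 [0.33 to 0.59] in the cleaner ones and 0.20 in T cells. After thinning, Ly6a was detected in 19.7% [17.7 to 21.9] of exposed and 11.99% [10.4 to 13.7] of control members, intervals that do not overlap, and in 8.15% of exposed and 7.23% of control T cells.

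Plac8, a small cysteine-rich protein of leukocytes (chromosome 5, 100553725 to 100572245, minus strand), was at 828 CPM [806 to 851] in exposed and 542 CPM [525 to 559.6] in control members. The log2 ratio was 0.61 [0.55 to 0.67] in all and 0.28 [0.20 to 0.36] in the cleaner members. Outside the members Plac8 was at 1107 CPM in the exposed and 519 CPM in the control library, and its log2 ratio in T cells was 0.83. The part of RNA from other cells in this difference was not tested.

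Several of the other higher genes were also higher in T cells. Gm10076, annotated as a long intergenic noncoding RNA, was at 164 CPM in exposed and 96.3 CPM in control members, with log2 ratios of 0.77 [0.62 to 0.91] in members and 0.72 in T cells. Ubb, a polyubiquitin gene, had 0.39 [0.35 to 0.43] in members and 0.35 in T cells. Dnal4, a dynein light chain gene, had 1.05 [0.46 to 1.68] in members and -0.46 in T cells, on 70 exposed and 36 control UMIs. T cells thus went the same way as members for Gm10076 and Ubb, and not for Dnal4.

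**Figure D3:**
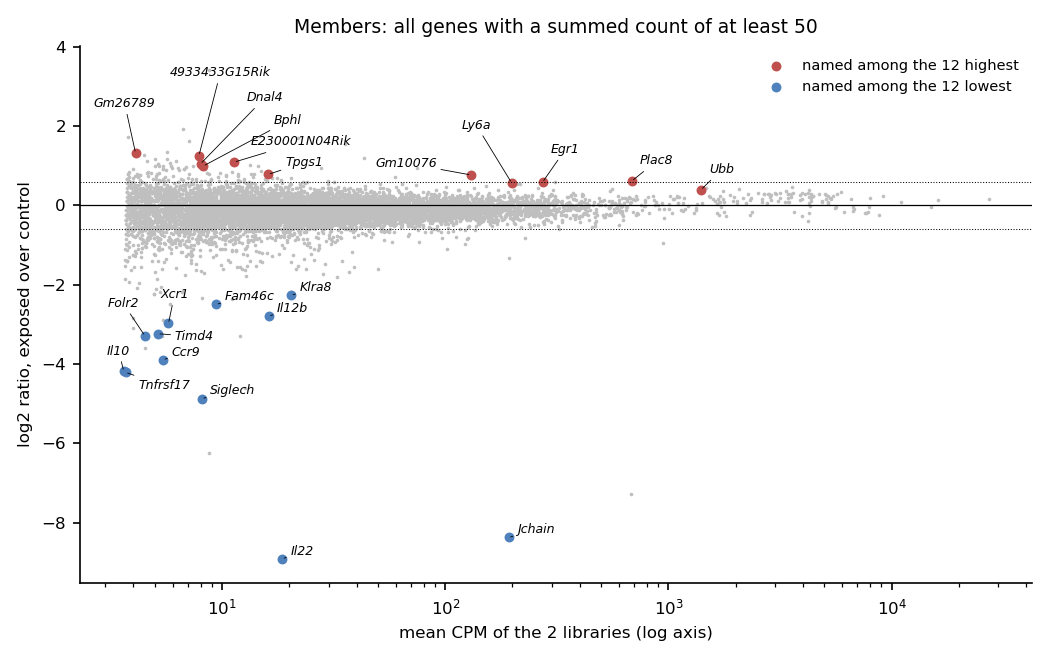
Log2 ratio of exposed over control members against the mean level in CPM (log axis) for the 9436 genes with 50 or more UMIs. Dotted lines mark 1.5-fold, red points genes named among the 12 highest and blue points the 12 lowest, with Jchain at -8.37 and, with 0 exposed UMIs, Il22 below it at a place set by the added 0.5 UMIs.

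Genes of the receptor and its signalling differed little. Of 19 genes with 20 or more UMIs, 6 were higher and 13 lower in exposed members, and 0 passed 1.5-fold. Of all 10853 genes with that many UMIs, 32.7% were above and 67.3% below 0, 2.76% were 1.5-fold or more higher and 9.32% as much lower, and for the 9642 in the cleaner members these shares were 33.0%, 67.0%, 2.97% and 7.22%. The median of the receptor genes was -0.11, beside -0.13 for all genes, and turned to 0.016 when centred on the median gene. In the cleaner members 14 of the 19 were lower, with a median of -0.21 beside -0.12 for all genes. Cd79b, a signalling chain and gate gene, was at 869.9 CPM in exposed and 756 CPM in control members (0.20 [0.15 to 0.26], and 0.080 [0.017 to 0.14] in the cleaner members). Ighm, the heavy chain of IgM, was at 3461 CPM in exposed and 3869 CPM in control members (-0.16 [-0.19 to -0.14], and -0.27 [-0.30 to -0.24] in the cleaner members). Malt1, the protease that links the receptor to NF-kB, was at 321 CPM in exposed and 401 CPM in control members (-0.32 [-0.40 to -0.24]).

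Over all members, co-receptors, inhibitory receptors and transcription factors of B cells had medians near the -0.13 of all genes. Of 17 co-receptor genes 13 were lower, with a median of -0.13. Inpp5d, the phosphatase SHIP-1 that damps receptor signals, was at 188 CPM in exposed and 238 CPM in control members (-0.34 [-0.45 to -0.23]). Of 19 transcription factors 16 were lower, with a median of -0.10 that turned to 0.021 when centred on the median gene. In the cleaner members 15 of 16 co-receptor genes and 17 of 19 transcription factors were lower, each list with a median of -0.20. Of all genes there, 67.0% were lower, with a median of -0.12. Foxo1, which keeps resting B cells quiescent and homing (chromosome 3, 52268336 to 52353221, plus strand), was at 232 CPM [220.2 to 244] in exposed and 323 CPM [309.6 to 337] in control members. Its log2 ratio was -0.48 [-0.57 to -0.38] in all members, -0.58 [-0.69 to -0.48] in the cleaner ones and -0.32 in T cells. Shares with a Foxo1 UMI after thinning were 21.3% [19.2 to 23.5] of exposed and 29.5% [27.2 to 31.8] of control members, intervals that do not overlap.

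Some lower genes were broadly expressed in members, and they were named after their values were seen. Scd1, a desaturase that makes monounsaturated fatty acids (chromosome 19, 44394455 to 44407879, minus strand), was at 498 CPM [481 to 516] in exposed and 706 CPM [687 to 726] in control members. Its log2 ratio was -0.50 [-0.57 to -0.44] in all and -0.60 [-0.68 to -0.53] in the cleaner members. After thinning, Scd1 was detected in 40.2% [37.7 to 42.8] of exposed and 53.3% [50.8 to 55.8] of control members, and in 0.136% of exposed and 0.620% of control T cells. Irs2, an adaptor of insulin and interleukin 4 signals, was at 196 CPM in exposed and 284 CPM in control members (-0.54 [-0.64 to -0.44], and -0.27 in T cells). Zfp36l2, a protein that destabilises messengers, was at 386 CPM in exposed and 554 CPM in control members (-0.52 [-0.60 to -0.45], and -0.47 in T cells).

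In the cleaner members the 12 lowest genes were Slc16a10, Slc30a1, Nmt2, Slc37a2, Snhg9, Eya1, Gla, Stip1, Mir142hg, Tada1, Nomo1 and Dtl. Stip1, a cochaperone that joins HSP70 and HSP90, was at 37.4 CPM in exposed and 68.8 CPM in control members, with log2 ratios of -0.88 [-1.11 to -0.65] in all members, -0.89 [-1.17 to -0.62] in the cleaner ones and -0.83 in T cells. Gla, the lysosomal enzyme alpha-galactosidase A, was at 16.7 CPM in exposed and 32.4 CPM in control members (-0.95 [-1.30 to -0.62], and 0.11 in T cells). Nmt2, which attaches myristate to proteins, was at 21.8 CPM in exposed and 38.7 CPM in control members (-0.83 [-1.14 to -0.53], and -0.54 in T cells). Stip1 and Nmt2 were thus lower in T cells as well, and Gla was not.

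Homing and survival genes lay near the median of all genes. Of 22 genes 9 were higher and 13 lower, with a median of -0.048 that turned to 0.077 when centred on the median gene. Klf2, which keeps up the egress receptor S1PR1 in quiescent lymphocytes, was at 1251 CPM in exposed and 1095 CPM in control members (0.19 [0.15 to 0.24]). Ccr7, the receptor for entry into lymphoid tissue, was at 575 CPM in exposed and 642 CPM in control members (-0.16 [-0.22 to -0.10]). Itgal, the LFA-1 integrin chain, was at 75.5 CPM in exposed and 109 CPM in control members (-0.52 [-0.69 to -0.36]).

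**Figure D4:**
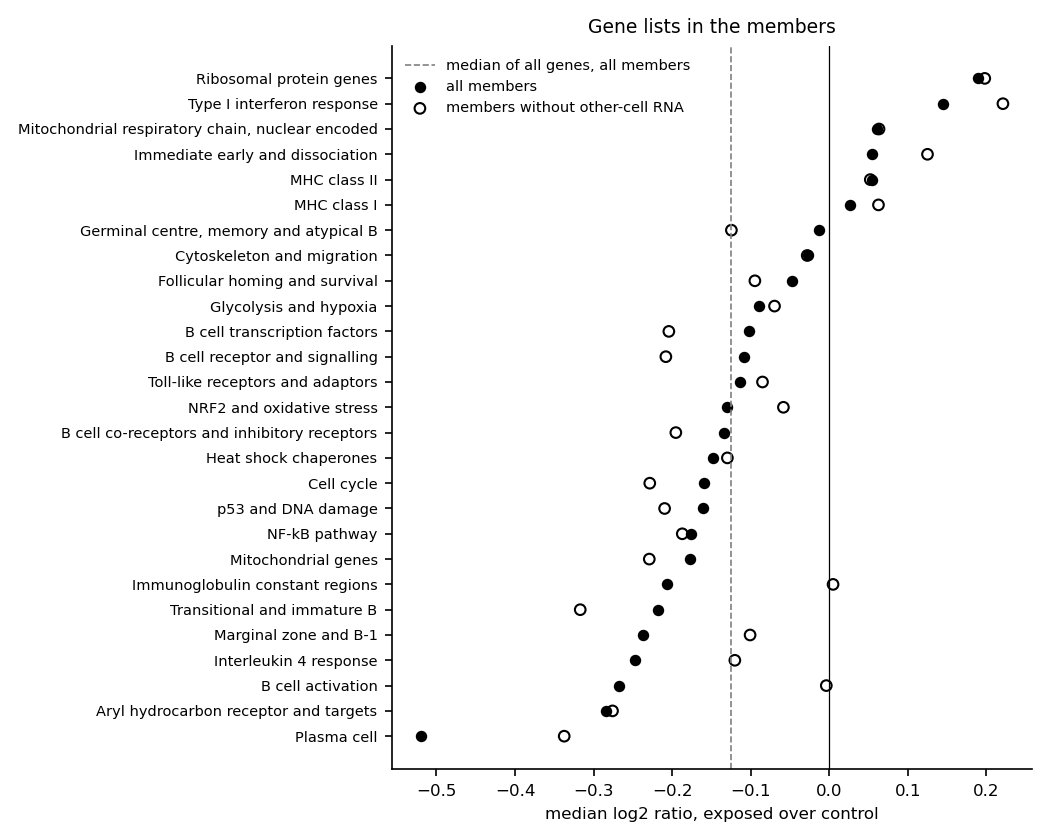
Median log2 ratio of exposed over control for each gene list over genes with 20 or more UMIs, for all and for the cleaner members, beside the median of all genes. Ribosomal protein genes stand at 0.19 and interferon genes at 0.14, and plasma cell genes at -0.52 over all members.

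Immediate early genes split. Of 23 genes 12 were higher and 11 lower, beside 32.7% of all genes above 0. The median was 0.054 over all and 0.12 over the cleaner members. It turned to -0.036 without scored doublets and to -0.029 under the stricter cell filter. Jun, a partner of the AP-1 dimer, was at 633 CPM [614 to 652] in exposed and 479 CPM [462 to 495] in control members (0.40 [0.34 to 0.47], 0.57 [0.48 to 0.65] in the cleaner members and 0.28 in T cells). Fosb, another AP-1 partner, was at 289 CPM in exposed and 246 CPM in control members (0.23 [0.14 to 0.33], 0.46 [0.34 to 0.58] in the cleaner members and -0.23 in T cells). Gadd45b, a stress-induced gene, was at 108 CPM in exposed and 91.1 CPM in control members (0.25 [0.093 to 0.41], and 0.82 [0.55 to 1.11] in the cleaner members). Jun, Fosb and Gadd45b were each farther above 0 in the cleaner members than in all of them.

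Other activation genes moved with the removal of other-cell RNA. Of 28 genes 8 were higher and 20 lower, a share near the 67.3% of all genes below 0. The median of the 28 was -0.27, beside -0.13 for all genes. Of 26 in the cleaner members 13 were higher, with a median of -0.0038. There 33.0% of all genes were above 0, with a median of -0.12. Cd83, which stabilises MHC class II on activated B cells, was at 466 CPM in exposed and 569.7 CPM in control members (-0.29 [-0.36 to -0.22], and -0.19 [-0.28 to -0.11] in the cleaner members). Ccl4, a chemokine that activated B cells release, was at 90.9 CPM in exposed and 162 CPM in control members, with -0.83 [-0.98 to -0.69] in all members and 0.17 [-0.11 to 0.45] in the cleaner ones, the other direction. Nr4a3, an orphan nuclear receptor induced by antigen receptors, was at 23.5 CPM in exposed and 53.01 CPM in control members, with -1.17 [-1.46 to -0.90] in all and -0.21 [-0.65 to 0.23] in the cleaner members. Egr2 was at 17.9 CPM in exposed and 14.7 CPM in control members, with 0.28 [-0.11 to 0.68] in all and 0.79 [0.22 to 1.41] in the cleaner members.

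Hspa1a and Hspa1b were found in a small set of members. Of 16 chaperone genes 5 were higher and 11 lower, with a median of -0.15. These values lay near those of all genes, of which 67.3% were below 0, with a median of -0.13. Hspa1a and Hspa1b encode near-identical inducible HSP70 proteins, so their separate counts are uncertain. Hspa1a was at 155 CPM in exposed and 125 CPM in control members, and Hspa1b at 234 and 207 CPM. At least 2 UMIs of the pair were found in 111 exposed members (7.64%) and 109 control members (7.02%). By this definition they hold nearly all UMIs of the pair. The median was 17 UMIs of the pair in these exposed cells and 12 in the control ones, with maxima of 133 and 99. Hsp90aa1, an HSP90 chaperone gene, was at 372 CPM in exposed and 448 CPM in control members (-0.27 [-0.35 to -0.19]).

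Promoters of 9 genes were searched for motifs. The promoters of Hspa1a, Hspa1b and Jun are shown because these genes mark the heat shock cells and the higher AP-1 level. They run 5′ to 3′ from 250 bases before to 50 after the start of the gene (RefSeq, GRCm38.p6), at chr17:34972107-34972406, chr17:34959189-34959488 and chr4:95052173-95052472, all on the minus strand. Capitals mark matches to GAANNTTC, a minimal pair of heat shock units, and to TGACNTCA, an AP-1 or CRE type palindrome, both searched on both strands.
Hspa1a: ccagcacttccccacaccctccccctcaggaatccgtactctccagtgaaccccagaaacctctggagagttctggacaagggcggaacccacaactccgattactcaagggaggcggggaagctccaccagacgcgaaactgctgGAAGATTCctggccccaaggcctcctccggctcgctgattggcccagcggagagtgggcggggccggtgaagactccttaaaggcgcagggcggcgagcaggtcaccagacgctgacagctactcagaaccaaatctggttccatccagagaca
Hspa1b: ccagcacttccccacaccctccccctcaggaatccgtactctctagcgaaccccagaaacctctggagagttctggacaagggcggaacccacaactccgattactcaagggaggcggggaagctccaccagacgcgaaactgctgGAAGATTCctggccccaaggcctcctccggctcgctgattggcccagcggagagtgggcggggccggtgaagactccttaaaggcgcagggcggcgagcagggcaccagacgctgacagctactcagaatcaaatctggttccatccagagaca
Jun: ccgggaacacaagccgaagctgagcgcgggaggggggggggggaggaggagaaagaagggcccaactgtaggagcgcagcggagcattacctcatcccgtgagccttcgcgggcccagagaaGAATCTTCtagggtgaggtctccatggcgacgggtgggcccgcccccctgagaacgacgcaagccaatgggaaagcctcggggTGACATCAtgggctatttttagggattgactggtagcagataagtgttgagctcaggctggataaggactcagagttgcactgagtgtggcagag
The Hspa1a and Hspa1b windows were the same at 296 of 300 positions, and each had 1 match to GAANNTTC. The Jun window had 1 match to GAANNTTC and 1 to TGACNTCA, which did not overlap. Among the searched genes not shown, Hsph1 had 1 match to GAANNTTC at each listed start and 0 to TGACNTCA. Fosb, Gadd45b, Dnajb1, Ubb and Stip1 had 0 matches to either motif, so higher AP-1 and heat shock genes did not all carry one. A further motif, the serum response element, was searched in 1 fixed form only and had 0 matches in the 9 genes. That form was held by 21 of 32851 mouse promoters of this length (0.0639%). It is too rare for 0 matches to decide whether these genes carry the element, and its other forms were not searched. Of 32851 mouse promoters of this length 7.86% held GAANNTTC and 8.83% held TGACNTCA, and a match is a description only.

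In the cells with 2 or more UMIs of Hspa1a and Hspa1b, other heat shock genes and Jun were high in both libraries. Among the cleaner members these cells numbered 79 in the exposed and 75 in the control library. Hsph1, a nucleotide exchange partner of HSP70, was at 291 against 14.6 CPM (heat shock cells against the rest) in the exposed and 293 against 36.5 CPM in the control library. Dnajb1, a cochaperone of HSP70, was at 359 against 56.9 CPM in the exposed and 355 against 41.6 CPM in the control library, and Jun at 1104 against 609 CPM in the exposed and 948 against 401 CPM in the control library. Most Dnajb1 UMIs of the cleaner members still lay outside these cells, with 242 outside and 117 inside in the exposed and 171 and 98 in the control library. Cd83 was lower in heat shock cells, at 248 against 506 CPM in the exposed and 347 against 572 CPM in the control library.

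Interferon genes leaned higher in exposed members. Of 40 genes 25 were higher and 15 lower, and 4 (Isg15, Oas1a, Usp18 and Rtp4, named after their values were seen) were 1.5-fold or more higher. Among all genes 32.7% were higher and 2.76% were so by 1.5-fold or more. The list median was 0.14 over all and 0.22 over the cleaner members, beside 0.090 in T cells. Ifi27l2a, a small interferon-induced mitochondrial protein, was at 617 CPM in exposed and 483 CPM in control members (0.35 [0.29 to 0.42], and 0.29 in T cells). Isg15, the ubiquitin-like modifier, was at 27.8 CPM in exposed and 18.3 CPM in control members (0.60 [0.26 to 0.94]). Oas1a, a sensor of double-stranded RNA, rested on 25 exposed and 10 control UMIs. After thinning, 2.76% [1.98 to 3.74] of exposed and 3.09% [2.29 to 4.08] of control members had 2 or more UMIs of an interferon set. The intervals overlap, and the lean was not seen in this share of cells.

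Antigen presentation genes differed by little. Of 17 MHC class II genes 13 were higher and 4 lower, with a median of 0.054, beside 32.7% of all genes above 0. Cd74, the invariant chain, was at 16849 CPM in exposed and 15314 CPM in control members (0.14 [0.13 to 0.15]), and H2-Aa, an MHC class II chain, at 5271 and 5054 CPM (0.061 [0.039 to 0.082]). Of 21 MHC class I genes 12 were higher and 9 lower. B2m, the light chain of MHC class I, was at 1674 CPM in exposed and 1891 CPM in control members (-0.18 [-0.21 to -0.14]).

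NF-kB and aryl hydrocarbon receptor genes were mostly lower, and oxidative stress genes lay at the background of all genes. Of all genes with 20 or more UMIs, 67.3% were below 0. Of 18 NF-kB genes 15 were lower, with a median of -0.18, beside -0.13 in T cells. Tnfaip3, a feedback inhibitor, was at 96.5 CPM in exposed and 149 CPM in control members (-0.62 [-0.77 to -0.48]), and Nfkb1, a subunit, at 199.8 and 276 CPM (-0.46 [-0.57 to -0.36]). Of 29 NRF2 and oxidative stress genes 12 were higher and 17 lower, with a median of -0.13, which thinning turned to 0.0061. Mt1, a metallothionein, was at 111 CPM in exposed and 276 CPM in control members. Its log2 ratio was -1.32 [-1.45 to -1.20] in all members, -1.16 [-1.71 to -0.65] in the cleaner ones and -1.38 in T cells, and 1 barcode held 27.2% of its exposed and 1 held 20.2% of its control UMIs. All 6 counted genes of the aryl hydrocarbon receptor, a sensor of combustion products, were lower, with a median of -0.28. The median of that list in T cells was -0.30, so this direction was not particular to members. Ahr itself was at 20.1 CPM in exposed and 28.02 CPM in control members (-0.48 [-0.81 to -0.15], and -0.27 [-0.75 to 0.21] in the cleaner members). Its targets Cyp1a1 and Cyp1b1 had 0 UMIs in the members of both libraries, which by a floor of 3 counts allows a level of up to 0.463 CPM in exposed members.

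Ribosomal protein genes were higher as a group. Of 87 genes 72 were higher and 15 lower, with a median of 0.19 in members and 0.17 in T cells. They made up a median of 30.4% of UMIs in exposed and 26.5% in control members, and 38.1% and 34.1% in T cells. Rps7 was at 4137 CPM in exposed and 3024 CPM in control members (0.45 [0.43 to 0.48], and 0.41 in T cells), and Rps28 went the other way at 3642 and 4812 CPM (-0.40 [-0.43 to -0.38], and -0.42 in T cells). Of 13 mitochondrial genes 11 were lower, with a median of -0.18 in members and 0.014 in T cells. Among all genes with 20 or more UMIs in members, 32.7% were above and 67.3% below 0.

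The remaining lists were mixed, beside 67.3% of all genes below 0. Lower in exposed members were 11 of 15 marginal zone and B-1 genes (median -0.24), 5 of 7 transitional B cell genes (median -0.22) and 8 of 12 germinal centre and memory genes (median -0.013). The same held for 13 of 17 interleukin 4 response genes (median -0.25), 12 of 15 Toll-like receptor genes (median -0.11), 11 of 17 p53 and DNA damage genes (median -0.16) and 15 of 21 cell cycle genes (median -0.16). Of glycolysis genes it was 12 of 22, of cytoskeleton genes 15 of 28 and of nuclear respiratory chain genes 13 of 40. Over 16 settings the germinal centre median changed sign in 5 and the marginal zone, Toll-like receptor and p53 medians in 1 each. Cd1d1 of the marginal zone list was at 28.1 CPM in exposed and 19.1 CPM in control members (0.56 [0.23 to 0.89], and 0.61 [0.21 to 1.02] in the cleaner members).

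Immunoglobulin genes gave different pictures in all and in the cleaner members. Of 10 constant genes 4 were higher and 6 lower in all members, beside 67.3% of all genes below 0. The log2 ratio of Igkc was -0.25 [-0.27 to -0.24] in all members and 0.053 [0.033 to 0.073] in the cleaner ones, the other direction. Igha was found in 41 exposed and 84 control members. Transcripts of IgG were rare, with 10 exposed and 42 control UMIs of Ighg3 and 4 and 58 of Ighg2b, 68.97% of the control UMIs of Ighg2b lying in 1 barcode. Ighg2c had 0 exposed and 24 control UMIs, at least 7.48-fold lower in exposed members against a floor of 3 counts. Ighg1 and Ighe had 0 UMIs in the members of both libraries. All 11 counted plasma cell genes were lower, with a median of -0.52. In the cleaner members 7 of 9 were lower, with a median of -0.34. Xbp1, the factor of the secretory pathway, was at 52.2 CPM in exposed and 71.4 CPM in control members (-0.45 [-0.66 to -0.25]).

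Lambda light chain transcripts were found in nearly every kappa member. A lambda constant UMI was counted in 1425 exposed members (98.1%) and 1503 control members (96.8%), with medians of 7 lambda and 31 Igkc UMIs in exposed and 6 and 28 in control members. The quartiles of the lambda share of light chain UMIs were 11.9% and 29.5% in exposed and 10.7% and 28.2% in control members. The median share was 78.8% in the 212 exposed and 80.4% in the 232 control B cells with more lambda than kappa UMIs. Just inside the rule, at 40% to 50%, lay 132 exposed and 108 control members, and just outside, at 50% to 60%, 55 and 56 B cells. Iglc2 had a UMI in 60.6% [58.1 to 63.2] of exposed and 56.6% [54.1 to 59.1] of control members after thinning, against 0.136% of exposed and 0.620% of control T cells. Those T cells were gated to lack the B cell genes and had medians of 6094 UMIs in the exposed and 5595 in the control library before thinning. Iglc2 and Iglc3 are near-identical genes, so their separate counts are uncertain.

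The members were not uniform, and the splits that follow were chosen after values were seen. Cleaner members with a CD23 UMI numbered 886 in the exposed and 926 in the control library, against 313 and 300 without. Log2 ratios of cells with over cells without a CD23 UMI were below 0 in both libraries for Ahnak, a scaffold protein, at -0.94 [-1.21 to -0.66] in the exposed and -0.97 [-1.21 to -0.72] in the control library. Cd9, a tetraspanin of marginal zone and B-1 cells, was at -0.72 [-1.33 to -0.068] and -0.84 [-1.43 to -0.21], and Plac8 at -0.53 [-0.65 to -0.42] and -0.59 [-0.72 to -0.46]. Jun was above 0 in both, at 0.22 [0.092 to 0.34] and 0.43 [0.27 to 0.60]. Cells with a CD23 UMI were slightly deeper, with medians of 3631.5 against 3522 UMIs in the exposed and 3366.5 against 3156 in the control library.

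A set with 2 or more UMIs of S100a6, Lmna, Actn1 and Nid1 held 55 exposed (4.59%) and 61 control (4.98%) cleaner members. Their median depth was 4581 against 3560 UMIs for the rest in the exposed and 5097 against 3268 in the control library. Fcer2a was low in these cells against the other cleaner members, at 242 against 481 CPM in the exposed and 361 against 520.3 CPM in the control library. Ighd was low too, at 952 against 1319.7 CPM in the exposed and 810.2 against 1378 CPM in the control library. Bhlhe41, a factor that B-1a cells need, was high, at 80.7 against 19.9 CPM in the exposed and 94.8 against 19.95 CPM in the control library. The set's leading gene S100a6, a calcium-binding protein, had a log2 ratio of exposed over control of 0.063 [-0.034 to 0.16] in all and -0.70 [-0.89 to -0.51] in the cleaner members.

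A set with 2 or more UMIs of Cplx2, Sox4, Hivep3, Gfi1 and Fam129c held 62 exposed (5.17%) and 88 control (7.18%) cleaner members. After thinning these shares were 0.918% [0.459 to 1.64] and 1.31% [0.749 to 2.11], intervals that overlap. The median depth of the set was 4495.5 against 3572 UMIs for the rest in the exposed and 3914.5 against 3277.5 in the control library. Ighm was high in these cells against the other cleaner members, at 5299 against 3745 CPM in the exposed and 7049.9 against 4412 CPM in the control library. Vpreb3, a protein of early B cells that binds light chains, was high, at 430.1 against 216 CPM in the exposed and 402 against 204 CPM in the control library, and so was Iglc1, at 842 against 257 CPM in the exposed and 863 against 226 CPM in the control library. Ighd was low, at 931 against 1324 CPM in the exposed and 1072 against 1361 CPM in the control library.

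A set with 2 or more UMIs of Egr2, Egr3, Nr4a3, Ccl3 and Ccl4 held 141 exposed (11.8%) and 133 control (10.8%) cleaner members. The median depth of this set was 3957 against 3532 UMIs for the rest in the exposed and 3689 against 3268 in the control library. Egr1 was high in these cells against the other cleaner members, at 1474 against 186 CPM in the exposed and 879 against 128 CPM in the control library. Myc, a regulator of growth, was at 475 against 102 CPM in the exposed and 363 against 106 CPM in the control library, and Irf4, a factor that B cell receptor signals induce, at 207 against 54.6 CPM in the exposed and 181 against 79.4 CPM in the control library. Egr1 was thus higher in exposed than in control cells both inside and outside this set.

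**Figure D5:**
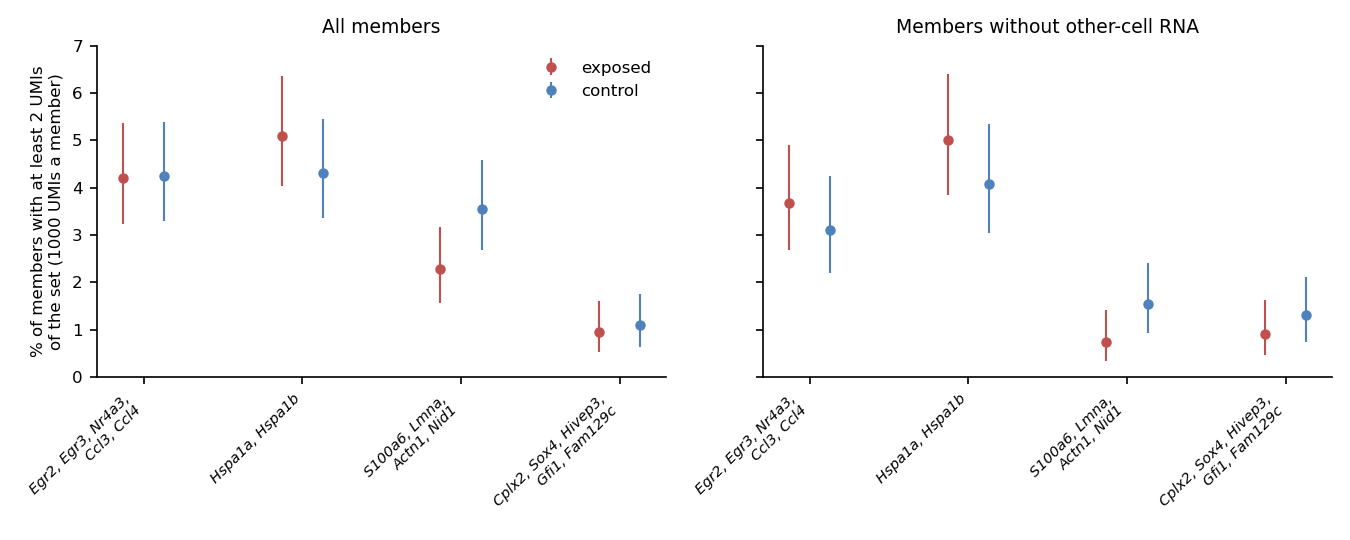
Percentage of members, each thinned to 1000 UMIs, with 2 or more UMIs of each of 4 gene sets, in all and in the cleaner members, exposed (red) left of control (blue), with exact 95% Clopper-Pearson intervals. The intervals of the libraries overlap for each set, as for heat shock at 5.10% of exposed and 4.32% of control members.

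Members were set against the 158 exposed and 232 control kappa B cells with at most 1 UMI of Ighd and Fcer2a, as a description, since the rule made the split. Cr2 was high in members, at 96.8 against 52.9 CPM in the exposed and 95.6 against 41.4 CPM in the control library. S100a6 was low in members, at 261 against 646 CPM in the exposed and 249.6 against 675 CPM in the control library, and so was Mzb1, a chaperone of plasma and B-1 cells, at 317 against 796 CPM in the exposed and 271 against 648 CPM in the control library. Mki67, a marker of cycling cells, was at 7.10 against 54.004 CPM in the exposed and 12.9 against 72.1 CPM in the control library. The directions were the same in both libraries for these 4 genes. They were not for Apoe, at 397 against 909 CPM in the exposed and 538 against 274 CPM in the control library, nor for Lyz2. The set beside the members also held plasma cell RNA, with Jchain at 4726 CPM in the exposed and 4128 CPM in the control library. Neither side was cleared of other-cell RNA here.

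Members were also set against lambda B cells, 212 in the exposed and 232 in the control library, again as a description. The lambda cells were not gated on Ighd and Fcer2a, so levels of these genes are not compared. The part of this unequal gate in the differences below was not tested. Cd79b was low in members against lambda cells, at 869.9 against 1187 CPM in the exposed and 756 against 1125 CPM in the control library. Bhlhe41 was low in members as well, at 27.6 against 49.8 CPM in the exposed and 29.8 against 64.4 CPM in the control library. H2-Aa was at 5271 against 4249 CPM in the exposed and 5054 against 4080.04 CPM in the control library, higher in members of both libraries. Kappa B cells with at most 1 UMI of Ighd and Fcer2a differed from members the same way. They had 1106 CPM of Cd79b, 57.2 CPM of Bhlhe41 and 3733 CPM of H2-Aa in the exposed library. In the control library these levels were 1172, 72.1 and 3067 CPM.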

How the data were processed

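Raw UMI counts per gene and barcode were deposited by the authors for 2 libraries of the 10x Genomics 3′ kit v3.1 and carry no normalization, per the file headers and the values. Cell Ranger and mm10 are named in the submitters' processing notes with version 3.1.3, while the file headers give 3.1.0. UMIs were summed over the members of a library and divided by their total, with Python 3.11.15, NumPy 2.4.6, SciPy 1.17.1, pandas 2.3.3 and scikit-learn 1.9.0. CPM carry exact Poisson intervals, shares exact Clopper-Pearson intervals, and log2 ratios exact conditional binomial intervals at 95%. The log2 point value has 0.5 UMIs added to each sum. The log2 ratio, its interval and the total left by thinning were tested on simulated counts. For the ratio, each gene was drawn from a Poisson distribution without clustering in cells. How the intervals cover genes held by a few barcodes was therefore not tested. The 12 highest and 12 lowest genes were ranked by the interval bound nearest to 0 among genes with 50 or more UMIs, a level in members no less than 0.5 times that of all other barcodes in the library where it is higher, and no mitochondrial, ribosomal, haemoglobin, sex-linked, immunoglobulin, T cell receptor or gate gene. In lists with 5 or more genes of 20 or more UMIs, up to 3 genes of largest count and 2 with the bound farthest from 0 were eligible for naming, and other genes named were chosen after their values were seen. Doublets were scored against simulated ones, with an assumed rate of 0.8% per 1000 cells, and kept in the main values. Of 31053 features 31011 matched the GENCODE annotation of GRCm38, and 35 symbols were repeated. Alternatives changed the cell filter, the limits of the rule, weighting, scaling and count minimum. The members, the 32 lists and the sets of genes were chosen with earlier results of these data known. Results for a few genes are not reported here.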

Additional observations from a re-analysis of the deposited data

How the results depend on the processing

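No paired analysis was possible because each group held 1 library, and for the same reason no library could be left out. The share of members among kept barcodes, at a ratio of 0.964, was 1.17 under the stricter cell filter and 1.19 when members with 2 or more UMIs of a broader list of other-lineage genes were left out. It ran between 0.950 and 1.04 under the other settings. The 121 genes 1.5-fold or more higher became 80 with members thinned to 1000 UMIs, 220 when centred on the median gene, 300 and 21 at a minimum of 20 and 200 UMIs, and 22 at 2-fold. The 615 lower genes became 403 without other-lineage UMIs, 399 without other-cell RNA (a setting added after seeing the data), 395 when centred, 1012 and 175 at those minimums, and 166 at 2-fold. The other settings gave 90 to 159 higher and 447 to 777 lower genes. Of the single genes named, Ccl4 turned to 0.78 [-0.15 to 1.83] without other-lineage UMIs and to 0.17 [-0.11 to 0.45] without other-cell RNA. Xcr1 turned to 1.25 (lower bound -5.62, no upper bound) and 0.42 [-2.60 to 4.10] under these settings. Tnfrsf17 turned to 2.38 without the members of most UMIs and 2.26 without other-cell RNA (lower bounds -2.36 and -2.47, no upper bounds). With thinning Eya1 went to 0.0060 [-1.12 to 1.11], Folr2 to 0.0962 [-3.69 to 3.88] and Mki67 to 0.0962 [-2.33 to 2.52]. All of these intervals hold 0, so the turned directions are not settled. The causes were not tested. The interferon median lay between 0.012 and 0.28, the ribosomal one between 0.18 and 0.31 and the heat shock one between -0.24 and -0.024 over all 16 settings. Depth limits the calls of rare genes, since a gene at the minimum of 50 UMIs has a wide interval.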

Other observations

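Genes near Ptprc, the gene of CD45, are given because the labels put the libraries on different CD45 alleles. Of 73 genes with 50 or more UMIs within 10 Mb of Ptprc, 0 were 1.5-fold or more higher and 10 as much lower in exposed members, with a median log2 ratio of -0.25, beside 1.28% and 6.52% of all genes. Ptprc itself was at 761 CPM in exposed and 869 CPM in control members, a log2 ratio of -0.19 [-0.25 to -0.14]. The part of the allele in these values was not tested.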
